A study of Mus musculus with 5 samples.

Results

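The genes described are 6 members of the ketone body and carnitine shuttle machinery, namely Bdh1, Acat1, Cpt1a, Cpt2, Slc25a20 and Slc22a5, in single mouse hepatocytes. They were chosen by gene symbol, with earlier results of these data known. All 6 were found among the 18018 genes of the unsmoothed expression table. Each is annotated as protein coding in GENCODE release vM21 of the mouse genome. On the mm10 (GRCm38) build Bdh1 lies at chr16:31422280-31458901 on the plus strand and Acat1 at chr9:53580522-53610382 on the minus strand. Cpt1a lies at chr19:3322334-3385733 (plus), Cpt2 at chr4:107903981-107923610 (minus), Slc25a20 at chr9:108662088-108684641 (plus) and Slc22a5 at chr11:53864542-53891660 (minus). An antisense gene, Gm15743, overlaps Bdh1, and as the treatment of strand is not given, reads of that pair cannot be told apart.

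The cells were hepatocytes of male C57BL/6J littermates that entered the study at 8 weeks of age. One group received a high fat diet for 12 weeks (HFD, 3 mice) and the other a regular diet for the same time (LFD, 2 mice). Libraries were made by Drop-seq, in which single cells are caught in droplets and their mRNA is labelled by cell and by molecule (the molecular label is the UMI), and 1 library came from each mouse. The comparison between diets asks how the hepatocyte transcriptome of the HFD mice differed from that of the LFD mice. The table held 454 cells, 238 from HFD mice and 216 from LFD mice, and no barcode was shared between mice.

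HFD mice 1, 2 and 3 gave 5, 208 and 25 cells with 27903, 656803 and 58470 UMIs, and LFD mice 1 and 2 gave 132 and 84 cells with 446868 and 309050 UMIs. Levels are given as CPM, the UMIs of a gene scaled to 1000000 UMIs of its mouse. A gene with no UMI could be as high as 108, 4.57 and 51.3 CPM in HFD mice 1, 2 and 3 and 6.71 and 9.71 CPM in LFD mice 1 and 2, the levels of 3 counts. These limits, and the exact 95% Poisson intervals below, cover counting error only. All 25 hepatocyte markers were detected in every mouse, and 24 or 25 of them in over 50% of cells. HFD mouse 1 stood apart, with a median of 6598 UMIs but 636 genes per barcode and 8.98% mitochondrial UMIs, against 5.10% to 5.63% in the other mice. HFD mouse 1 also had 1075 CPM of sinusoidal endothelial markers, from 2 of the 10 on that list, where no other mouse had more than 34.2 CPM. Erythroid markers summed to 502, 13.7 and 291 CPM in HFD mice 1, 2 and 3, against 6.71 and 3.24 CPM in LFD mice 1 and 2. Of 9 macrophage markers 0 to 8 were detected, summing to at most 38.0 CPM in any mouse, and stellate cell markers summed to at most 51.3 CPM and cholangiocyte markers to at most 134 CPM. T or NK cell and B cell markers were at 0 in every HFD mouse and in LFD mouse 1 and had 1 UMI each in LFD mouse 2. The label of HFD mouse 3 names its raw reads in another form than the labels of the other mice, so it may come from another sequencing run, which holds that mouse alone. As HFD mouse 1 stood apart, the diet fold changes are given with and without it.

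In the fasted or fat-loaded liver, long-chain fatty acids enter mitochondria only as carnitine esters, are broken down there to acetyl-CoA, and leave in part as ketone bodies. Carnitine is taken up by OCTN2 (Slc22a5), CPT1A on the outer mitochondrial membrane makes the acylcarnitine and is inhibited by malonyl-CoA, the carrier CACT (Slc25a20) moves it across the inner membrane, and CPT2 returns the acyl group to CoA. In ketogenesis ACAT1 condenses acetyl-CoA to acetoacetyl-CoA, from which acetoacetate is formed, and BDH1 reduces it to beta-hydroxybutyrate. Cpt1a is a textbook target of the nuclear receptor PPAR alpha.

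Promoters are shown for Cpt1a and Slc25a20, which were both above the LFD mice in HFD mice 2 and 3, and for Cpt2, which was not, so that their letters can be compared. They run from 250 bases before to 50 after the RefSeq start on GRCm38.p6, 5′ to 3′ on the strand of the gene. RefSeq gave promoters for 5 of the 6 members, all but Acat1, and the 3 shown belong to the carnitine shuttle at the mitochondrion. Capitals mark GGGCGG (a GC box), CCAAT and AGGTCA (a nuclear receptor core sequence) on either strand, and no marked matches overlap. The windows are chr19:3323051-3323350 (plus) for Cpt1a, chr9:108661886-108662185 (plus) for Slc25a20 and chr4:107923540-107923839 (minus) for Cpt2.
Cpt1a: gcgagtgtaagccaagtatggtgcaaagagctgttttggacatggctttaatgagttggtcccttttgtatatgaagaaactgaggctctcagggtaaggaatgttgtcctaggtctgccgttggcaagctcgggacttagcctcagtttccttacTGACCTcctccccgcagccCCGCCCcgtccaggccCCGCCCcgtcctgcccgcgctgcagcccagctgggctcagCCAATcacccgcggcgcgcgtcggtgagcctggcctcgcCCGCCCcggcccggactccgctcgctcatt
Slc25a20: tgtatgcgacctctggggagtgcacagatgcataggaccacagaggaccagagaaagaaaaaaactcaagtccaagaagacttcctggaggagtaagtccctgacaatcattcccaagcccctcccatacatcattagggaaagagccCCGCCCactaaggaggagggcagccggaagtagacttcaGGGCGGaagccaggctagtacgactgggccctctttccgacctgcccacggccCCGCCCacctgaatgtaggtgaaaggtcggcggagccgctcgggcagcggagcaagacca
Cpt2: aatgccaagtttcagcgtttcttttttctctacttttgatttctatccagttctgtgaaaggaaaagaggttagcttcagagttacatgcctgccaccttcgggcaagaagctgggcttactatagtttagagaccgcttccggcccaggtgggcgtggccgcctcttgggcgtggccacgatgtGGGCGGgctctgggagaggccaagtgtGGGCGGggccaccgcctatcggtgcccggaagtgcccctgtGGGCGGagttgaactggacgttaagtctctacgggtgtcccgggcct

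Each of these 3 windows held 3 GGGCGG matches, a motif present in 35.7% of all 32851 RefSeq promoters of the same length. The Cpt1a window also held CCAAT, which 37.4% of promoters hold, at bases -19 to -15 from the start. It held AGGTCA on the opposite strand at bases -94 to -89, against 16.3% of promoters with that motif. A direct repeat of AGGTCA with 1 base between the copies, which 0.0396% of promoters hold, and TATAAA, which 13.6% hold, were in none of the promoters of the 5 members. The GC content was 62.3% for Cpt1a, 58.0% for Slc25a20 and 57.3% for Cpt2, against a median of 52.7% over all promoters. The Slc22a5 promoter held 5 GGGCGG matches, of which the last 2 share a base. Of the 2 Bdh1 promoters in RefSeq, the upstream one held none of these motifs and the downstream one a single GGGCGG. These matches describe letters in a window and not bound sites.

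Acat1 and Bdh1, the members at the 2 ends of ketogenesis, were measured with 637 and 159 UMIs in all. Acat1 was at 143, 556 and 479 CPM in HFD mice 1, 2 and 3 (4, 365 and 28 UMIs), against 320.0 and 314 CPM in LFD mice 1 and 2 (143 and 97 UMIs). HFD mice 2 and 3 lay above both LFD mice and HFD mouse 1 below them, so the groups overlapped. The Poisson interval of HFD mouse 2 ran from 500.2 to 616 CPM and did not reach those of the LFD mice, of which the higher ended at 383 CPM. That of HFD mouse 1 ran from 39.1 to 367 CPM. Over all mice Acat1 averaged 393 ± 219 CPM in HFD mice and 317 ± 4.34 CPM in LFD mice (SD, n = 3 and 2). The log2 fold change of HFD over LFD was 0.36 (SE 0.48, limma voom adjusted p = 0.988), which did not pass the threshold of 0.05.

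Without HFD mouse 1, Acat1 averaged 517 ± 54.3 CPM in HFD mice and 317 ± 4.34 CPM in LFD mice (SD, n = 2 each). HFD over LFD then had a log2 fold change of 0.74 (SE 0.19), and Acat1 rose in HFD mice with an adjusted p of 0.0426 by limma voom. Of 3670 genes tested in these 4 mice, 123 were called, 3.35%, and 47 of them were higher in HFD (1.28%). The call was lost under other settings for the same 4 mice, with adjusted p values of 0.164 with median-of-ratios factors, 0.133 with no filter on low counts and 0.434 on the mean deposited log values. With a further mouse left out, the log2 fold change ran from 0.53 to 0.83. Each of those fits had 1 mouse left in a diet, so the call could not be checked by them.

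Bdh1 was at 35.8, 143 and 68.4 CPM in HFD mice 1, 2 and 3 (1, 94 and 4 UMIs), against 76.1 and 84.1 CPM in LFD mice 1 and 2 (34 and 26 UMIs). HFD mouse 2 alone lay above the LFD mice, and the other 2 HFD mice, with 5 UMIs between them, lay below. Its log2 fold change was 0.28 (SE 0.55, limma voom adjusted p = 0.993) in 5 mice and 0.75 (SE 0.29, adjusted p = 0.181) without HFD mouse 1, so no difference was called. Without HFD mouse 2 instead, it was -0.24 (SE 0.60, limma voom adjusted p = 0.878).

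Cpt1a, whose enzyme sets the entry of fatty acids into mitochondria, was the one member whose diets did not overlap in all 5 mice. It was at 143, 171 and 137 CPM in HFD mice 1, 2 and 3 (4, 112 and 8 UMIs), against 87.3 and 93.8 CPM in LFD mice 1 and 2 (39 and 29 UMIs). Every HFD mouse lay above every LFD mouse, as did 8.88% of all genes tested. The mean was 150.2 ± 17.9 CPM in HFD mice and 90.6 ± 4.64 CPM in LFD mice (SD, n = 3 and 2). The log2 fold change was 0.77 (SE 0.46), and limma voom with all genes tested gave an adjusted p of 0.988. Among the 3614 genes tested in 5 mice, 8 were called (0.221%), 2 of them higher in HFD (0.0553%), and none was a member.

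The Cpt1a level of HFD mouse 1 rested on 4 UMIs, with a Poisson interval of 39.1 to 367 CPM that covers both LFD values. All 9 member UMIs of that mouse came from 1 of its 5 barcodes, which had 8306 UMIs and 2309 genes. The other 4 barcodes, with 2725 to 7481 UMIs and 369 to 1084 genes, held 0 UMIs of any member. That barcode was among the top 5% of cells by UMIs, and without those cells the Cpt1a log2 fold change was -0.04 (SE 0.90, limma voom adjusted p = 0.994). Without HFD mouse 1 it was 0.87 (SE 0.26, adjusted p = 0.0787), which did not pass. With HFD mouse 3 left out as well, so that HFD mouse 2 was the only HFD mouse, it was 0.93. Leaving out any further mouse from these 4 gave 0.59 to 0.93. Each of these fits had 1 mouse left in a diet, so no call is drawn from them.

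Slc25a20, the carnitine-acylcarnitine carrier, was at 0, 91.4 and 85.5 CPM in HFD mice 1, 2 and 3 (0, 60 and 5 UMIs), against 58.2 and 61.5 CPM in LFD mice 1 and 2 (26 and 19 UMIs). HFD mice 2 and 3 were above both LFD mice, while the 0 of HFD mouse 1 allows up to 108 CPM. It had a log2 fold change of 0.17 (SE 0.63, limma voom adjusted p = 0.996) in 5 mice and 0.61 (SE 0.29, adjusted p = 0.288) without HFD mouse 1. In those 4 mice Acat1, Cpt1a and Slc25a20 had every HFD mouse above every LFD mouse, as did 20.6% of all genes tested.

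Cpt2, which releases the acyl group inside the mitochondrion, was at 0, 102 and 68.4 CPM in HFD mice 1, 2 and 3 (0, 67 and 4 UMIs), against 94.0 and 100.3 CPM in LFD mice 1 and 2 (42 and 31 UMIs). HFD mouse 2 and both LFD mice lay within 8.02 CPM of each other. The log2 fold change was -0.50 (SE 0.63, limma voom adjusted p = 0.988) in 5 mice and 0.05 (SE 0.28, adjusted p = 0.953) without HFD mouse 1, and its 95% interval in 4 mice ran from -0.55 to 0.64. The sign of the limma voom estimate thus turned without that library, to a value well within its SE of 0. The mean CPM of those 4 mice stayed lower in HFD, at 85.2 against 97.1 CPM.

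Slc22a5, the carnitine transporter of the plasma membrane, was close to the limit of detection. It had 0, 4 and 0 UMIs in HFD mice 1, 2 and 3, against 1 and 0 UMIs in LFD mice 1 and 2, which is 0, 6.09 and 0 CPM and 2.24 and 0 CPM. These 5 UMIs lay in 5 cells. It was the one member that missed the filter on low counts, and a difference between diets was not detectable at this depth.

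Of the other ketogenesis and ketone export genes, 4 of 7 were tested in 5 mice and none was called. Their median log2 fold change was 0.27, against -0.08 over all genes tested. Without HFD mouse 1, 3 were tested and 1 was called, higher in HFD, as were 1.28% of all genes tested. The median was then 0.44 against 0.00 over all genes. Bdh2, a cytosolic dehydrogenase, did not pass, at 0, 32.0 and 68.4 CPM in HFD mice against 35.8 and 42.1 CPM in LFD mice. Its log2 fold change was -0.25 (SE 0.60) in 5 mice and -0.21 (SE 0.36) in 4. Oxct1, whose enzyme lets tissues outside the liver burn ketone bodies, had 0 UMIs in HFD mice and 1 in LFD mice.

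Of the other genes of carnitine supply and acylcarnitine handling, 4 of 8 were tested in 5 mice and none was called. The median log2 fold change of this list was 0.46 in 5 mice and 0.36 in 4, against -0.08 and 0.00 over all genes tested. Crot, the carnitine octanoyltransferase of peroxisomes, was at 3190, 982 and 821 CPM in HFD mice 1, 2 and 3, against 539 and 430 CPM in LFD mice 1 and 2. Every HFD mouse was above both LFD mice, as for 8.88% of all genes tested, and here HFD mouse 1 was the highest. Crot had a log2 fold change of 1.20 (SE 0.43, limma voom adjusted p = 0.800) in 5 mice and rose by 0.92 (SE 0.19, adjusted p = 0.0118) without HFD mouse 1. It was the single gene called of 3 tested there, where 1.28% of all genes were called higher in HFD. Bbox1 and Aldh9a1, which act in carnitine synthesis, had log2 fold changes of -0.28 (SE 0.68) and -0.48 (SE 0.47) in 5 mice and 0.36 (SE 0.32) and -0.20 (SE 0.21) in 4 mice, and were not called. Cpt1b and Cpt1c, the muscle and brain forms of CPT1, had 0 UMIs in all 5 mice.

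No gene was called among the 3 tested of malonyl-CoA control of CPT1, the 16 of mitochondrial beta oxidation or the 7 regulators, in 5 mice or in 4. Acaca, which makes malonyl-CoA, was at 35.8, 47.2 and 34.2 CPM in HFD mice against 24.6 and 16.2 CPM in LFD mice (log2 fold change 1.10, SE 0.57, limma voom adjusted p = 0.988, and 1.08, SE 0.45, adjusted p = 0.215 in 4 mice). Mlycd, which removes malonyl-CoA, was at 0, 24.4 and 85.5 CPM in HFD mice against 42.5 and 45.3 CPM in LFD mice (-0.62, SE 0.62 in 5 mice and -0.75, SE 0.36 in 4 on the log2 scale). The beta oxidation genes had a median log2 fold change of 0.07 in 5 mice, with 9 of 16 above 0, and of 0.20 in 4 mice, with 13 of 16 above 0, against medians of -0.08 and 0.00 over all genes tested. Acaa2, Etfb and Etfa, those of highest CPM, had log2 fold changes of 0.29, -0.27 and -0.03 in 5 mice and 0.01, -0.22 and 0.23 in 4 mice. Of the regulators, Creb3l3, Rxra and Nr1h3 had -0.49, 0.28 and 0.18 in 5 mice and -0.06, 0.32 and 0.23 in 4 mice, in the 4 mice with limma voom adjusted p values of 0.927, 0.591 and 0.719.

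Other PPAR alpha targets had the highest median of the 6 lists. It was 0.56 over 9 tested genes in 5 mice, with 1 called higher in HFD and 0 lower, against -0.08 over all 3614 genes with 2 called higher (0.0553%) and 6 lower. In 4 mice it was 0.79 over 10 genes, with 4 called higher and 0 lower, against 0.00 over all 3670 genes with 47 called higher (1.28%) and 76 lower. Cyp4a14, a fatty acid omega-hydroxylase, was at 215, 303 and 325 CPM in HFD mice 1, 2 and 3, against 38.0 and 9.71 CPM in LFD mice 1 and 2. It rose by 3.72 on the log2 scale (SE 0.58, limma voom adjusted p = 0.0278) in 5 mice and by 3.54 (SE 0.45, adjusted p = 0.00018) in 4. The lipid droplet coat gene Plin2 (0.91, SE 0.22), the peroxisomal thiolase Acaa1b (0.88, SE 0.15) and the fatty acid binding protein gene Fabp1 (0.71, SE 0.14) passed only without HFD mouse 1, with limma voom adjusted p values of 0.0268, 0.00295 and 0.0105.

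**Figure D1:**
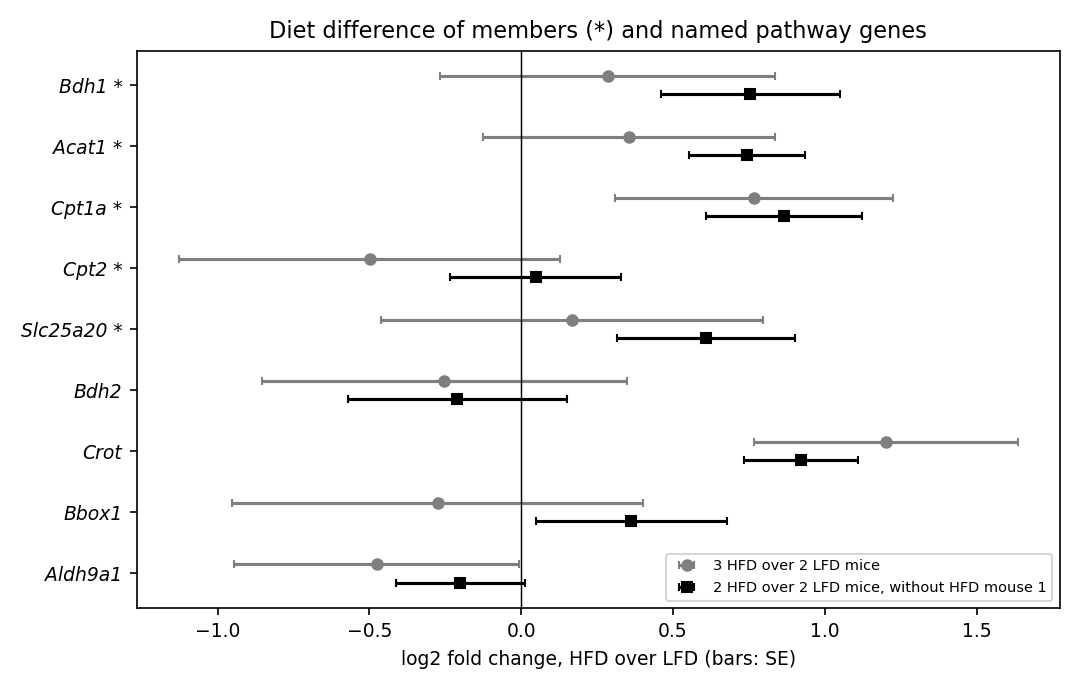
Log2 fold change of HFD over LFD with its SE for the 5 members tested (marked *) and the named genes of their pathways, with all 5 mice (grey circles) and without HFD mouse 1 (black squares). The SE of Acat1 is 0.48 with HFD mouse 1 and 0.19 without it, and Cpt2 lies at -0.50 and 0.05.

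The share of cells with a UMI of a member depends on depth, so each cell was thinned to 1728 UMIs, and the 85 HFD and 28 LFD cells below that were left out. Acat1 was then found in 12.1%, 61.4% and 54.1% of cells of HFD mice 1, 2 and 3, against 42.3% and 36.2% of cells of LFD mice 1 and 2. The thinned cells numbered 5, 134 and 14 in HFD mice and 114 and 74 in LFD mice. As for its CPM, HFD mice 2 and 3 were above both LFD mice and HFD mouse 1 below them. Before thinning, Acat1 was found in 1 of 5, 155 of 208 and 15 of 25 cells of HFD mice 1, 2 and 3 and in 83 of 132 and 46 of 84 cells of LFD mice 1 and 2, with median depths of 6598, 2181.5 and 1863 UMIs in HFD mice and 2734 and 3075.5 UMIs in LFD mice.

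Cpt2 was the member whose thinned share had every HFD mouse below every LFD mouse. Its share was 0%, 15.4% and 11.6% in HFD mice 1, 2 and 3 against 16.2% and 15.7% in LFD mice 1 and 2. How many of all genes separate the diets in this way was not counted, so the order is a description only. The exact 95% binomial interval for the 0 of 5 cells in HFD mouse 1 reached up to 52.2%. HFD mouse 2 and the LFD mice differed by less than 1 percentage point. The mean difference was -6.93 percentage points, with a two-sided exact permutation p of 0.2, the smallest that 3 against 2 mice allow, and an adjusted p of 1 over the 6 members. It was -2.43 points without HFD mouse 1 and -15.3 points before thinning. The mean difference of HFD minus LFD was -1.91 points for Bdh1, 3.32 for Acat1, 1.84 for Cpt1a and 0.66 for Slc25a20, each with an exact permutation p of 1. The deposited cells held no group of another cell type that could give the background share of free RNA.

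Within mice, cells differed in how many members were seen. In HFD mouse 2, 11.5% of cells had no UMI of any member, and 29.3% had UMIs of 3 or more of them, against 16.7% and 16.7% in LFD mouse 1 and 20.2% and 21.4% in LFD mouse 2, at the unequal depths given above. In HFD mouse 3 these were 5 and 2 of 25 cells, and in HFD mouse 1 they were 4 and 1 of 5 cells, so the HFD mice lay on both sides of the LFD mice. No cell had all 6. The highest count in a cell was 13 UMIs for Acat1, 5 for Bdh1, 4 each for Cpt1a, Cpt2 and Slc25a20 and 1 for Slc22a5.

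**Figure D2:**
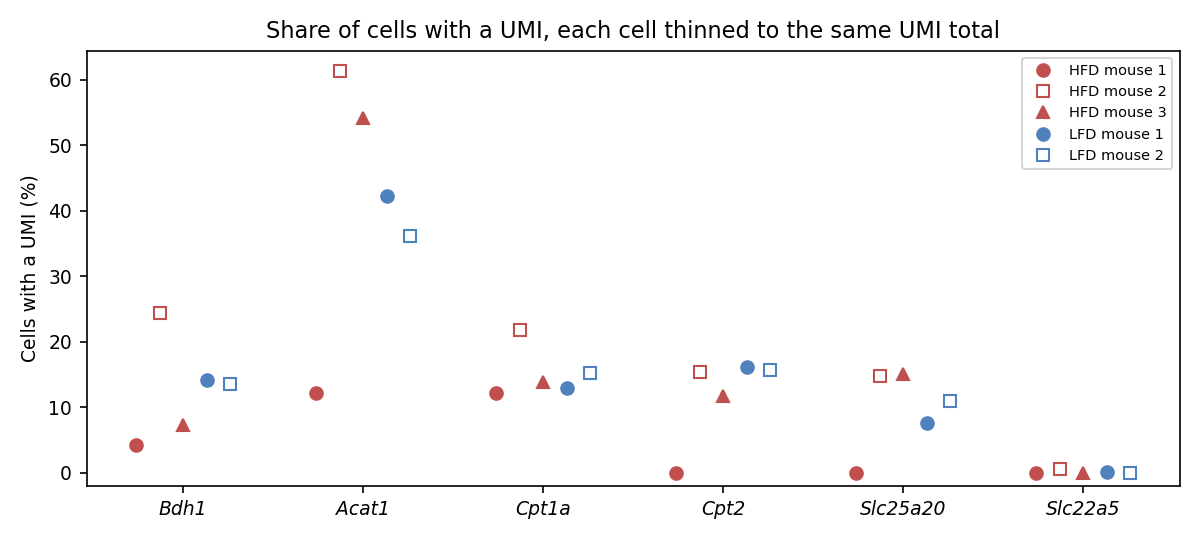
Share of cells with a UMI of each member in each mouse after thinning to 1728 UMIs, with HFD mice in red and LFD mice in blue. For Acat1, HFD mice 2 and 3 lie at 61.4% and 54.1%, the LFD mice at 42.3% and 36.2% and HFD mouse 1 at 12.1%.

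Liver lobules are fed at the portal side and drained at the central vein, and hepatocytes along this axis differ in metabolism. Within a mouse, cells were ordered by the UMIs of 10 pericentral genes, among them Glul and Cyp2e1, over those of 10 periportal genes, among them Cyp2f2 and Ass1, and divided at the median. Bdh1 was the member that differed between the sides. It was at 175 CPM on the pericentral and 105.5 CPM on the periportal side in HFD mouse 2, 64.2 and 73.2 CPM for HFD mouse 3, 138 and 33.9 CPM in LFD mouse 1 and 126 and 51.7 CPM in LFD mouse 2, pericentral first. The pericentral side was higher in 3 of 4 mice, and in HFD mouse 3 each side held 2 UMIs. The log2 fold change of the pericentral over the periportal side was 1.01 (SE 0.27, limma voom with mouse as a block, adjusted p = 0.00427). In this comparison 198 of 2029 genes were called (9.76%), 107 pericentral and 91 periportal, or 125 and 66 when scaled by library totals.

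With the cells in tertiles of the axis, Bdh1 went down in steps in both LFD mice. From the pericentral through the middle to the periportal tertile it was at 142, 74.9 and 37.4 CPM in LFD mouse 1 and 151, 73.8 and 49.5 CPM in LFD mouse 2. In HFD mouse 2 it was at 207, 96.2 and 97.5 CPM, with the pericentral tertile above the other 2, and in HFD mouse 3 it had 0, 2 and 2 UMIs (0, 142 and 91.8 CPM). Cells also differed in depth along the axis, with median UMIs per cell of 1914.5, 2747.5 and 3724 in the same order in LFD mouse 1, 2565.5, 2833.5 and 3800.5 in LFD mouse 2 and 2772, 1721 and 2495 in HFD mouse 2, and the part of depth in the result was not tested. The Bdh1 call was lost with the outer tertiles (0.95, adjusted p = 0.0556), with no filter on low counts (0.93, adjusted p = 0.120), without LFD mouse 1 (0.72, adjusted p = 0.119) and with HFD mouse 1 added (0.14, adjusted p = 0.908), all by limma voom.

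The other members did not pass between the sides. Acat1 was higher on the pericentral side in each of the 4 mice, at 602 and 501 CPM (pericentral and periportal) in HFD mouse 2, 546 and 403 CPM for HFD mouse 3, 358 and 294 CPM in LFD mouse 1 and 445 and 212 CPM in LFD mouse 2. Its log2 fold change was 0.38 (SE 0.16, limma voom adjusted p = 0.139). Slc25a20 also had the higher CPM on the pericentral side in each of the 4 mice (0.21, SE 0.29, limma voom adjusted p = 0.772). Its UMIs, pericentral first, were 33 and 27 in HFD mouse 2 and 3 and 2 for HFD mouse 3. They were 13 and 13 in LFD mouse 1, where only the totals of the sides differed, and 10 and 9 in LFD mouse 2. How many of all genes had the same side higher in each mouse was not counted, so these orders are a description only. Cpt1a had a log2 fold change of -0.39 (SE 0.24, limma voom adjusted p = 0.394), with the periportal side higher in 3 of 4 mice and lower in LFD mouse 2. Cpt2 had 0.40 (SE 0.26, limma voom adjusted p = 0.442).

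The difference of the axis between diets was tested with an interaction term, which called 2 of 2029 genes (0.0986%) and no member. For Bdh1 it was -1.05 (SE 0.53, limma voom adjusted p = 0.896), a difference that did not pass. It moved to -0.26 with Cyp2e1 and Cyp2f2 as the score, -0.55 without LFD mouse 1, -1.84 without HFD mouse 2 and -2.08 with all 5 mice. For the other 4 members it ran from -0.48 to 0.37, with adjusted p values of 0.908 to 0.931.

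**Figure D3:**
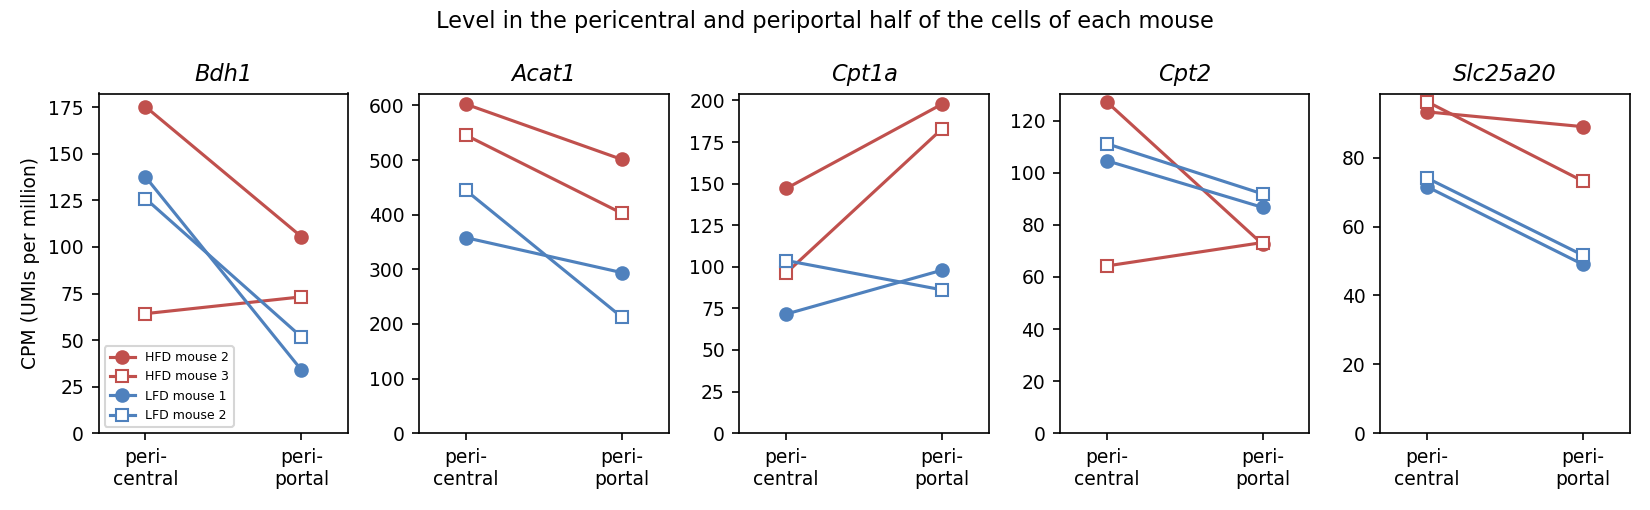
Level in CPM of the 5 members tested on the pericentral and the periportal side of the median in each of 4 mice, with HFD mice in red and LFD mice in blue and a line joining the sides of a mouse. Bdh1 is higher on the pericentral side in 3 of 4 mice and Acat1 in 4 of 4, and such agreement was not counted over all genes.

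Over the 12 sums of mouse by tertile, the members were compared with 3430 genes for likeness, with Pearson's r of log2(CPM + 10) as a description. Predicted gene models and ribosomal and mitochondrial genes were passed over. The sums share libraries and depth, and those of HFD mouse 3 hold few UMIs. The genes most like Bdh1 were Ceacam1 (r = 0.93), Akr1d1 (0.93) and Pnrc1 (0.92). Those most like Acat1 were Spag7 (0.90), Cmas (0.90) and Hypk (0.87), and those most like Cpt1a were Mid1ip1 (0.86), Gclc (0.84) and Jun (0.84). Denr (0.83), Gamt (0.83) and S100a1 (0.82) were most like Cpt2, and Znhit2 (0.78), Ppp2ca (0.78) and Aldh1a1 (0.77) most like Slc25a20. These genes were picked as the highest of 3430 over 12 sums, and no background of r was computed. Spag7, Cmas and Znhit2 had only 63, 52 and 41 UMIs in all. Among the members the pair with the highest r was Acat1 and Cpt1a (0.79), followed by Acat1 and Slc25a20 (0.62), while Cpt2 and Cpt1a had -0.25.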

How the data were processed

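Single hepatocytes of 3 HFD and 2 LFD mice were profiled by Drop-seq, per the labels. The submitters' processing notes name STAR 2.6.0a and mm10. Annotation, cell filter, strand and doublet handling are not given in the sources used. The deposited table that the authors made holds the natural log of 1 plus a gene's UMIs per 10000 of its cell, as its values show. After back-transformation, 100% of values were whole multiples of a cell's smallest step within a tolerance of 0.001, so whole UMIs were recovered. The authors' second table, smoothed with MAGIC on the same natural log scale, was used for direction only. The deposited values are logs. Limma voom was run on the summed UMIs, which it fits as weighted log values, and no other count model was run. Cells were given to mice by column name, and 0 columns were left out. No doublet caller was run.

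Sums of UMIs by mouse went into limma voom (limma 3.58.1, R 4.3.3), with trimmed-mean factors over the tested genes. Genes needed 32.4 CPM (10 UMIs at the median library) in 2 mice and 15 UMIs in all. The Benjamini-Hochberg adjusted p threshold was 0.05, over all genes tested. For the lobule axis, HFD mouse 1 was left out for having under 20 cells, and the filter held for at least every other sum. Shares were compared with the exact permutation test of SciPy 1.17.1, two-sided. Alternatives were other scalings, filters and log scales, cells or mice left out, and other divisions of the axis. Named genes were all members, from each pathway list the genes called or, with none, the 3 of highest CPM, with genes called only without HFD mouse 1 added, and per member the 3 genes of highest r. Oxct1, Cpt1b, Cpt1c and Fgf21 were named after their values were seen. Some genes of the lists that the rule names are not reported here. The members and lists were chosen with earlier results of these data known. The fits were tested on simulated data with the same spread in every mouse and changes larger than the diet changes of the members. That run does not show how the fits fare with a library like HFD mouse 1.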

Additional observations from a re-analysis of the deposited data

How the results depend on the processing

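The alternatives for 4 mice and trimmed-mean factors from all genes were chosen after seeing the data. The 8 genes called between diets in 5 mice were 8 with library totals or median-of-ratios factors, 2 with trimmed-mean factors from all genes, with no filter or without the top 5% of cells, 25 with a minimum of 50 UMIs or a replicate block, 14 on the mean deposited log values, 0 on log2(CPM + 10) (66 at unadjusted p under 0.05 by limma-trend) and 28 without the 18 cells with 3 or more non-hepatocyte UMIs. Leaving out each mouse gave 0 to 123 calls by limma voom, the 123 without HFD mouse 1 and 0 without any of the others (205, 134, 43 and 37 at unadjusted p under 0.05 without HFD mouse 2, HFD mouse 3, LFD mouse 1 and LFD mouse 2). Trimmed-mean factors from all genes moved the median log2 fold change of all genes to -0.23. The cause was not tested in any of these cases.

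No member was called in 5 mice under any setting that kept every mouse, leaving aside the smoothed table, which was used for direction only. The sign of the log2 fold change turned for Bdh1 on the mean deposited log values (-0.056), on log2(CPM + 10) (-0.20) and without the top 5% of cells (-0.42), for Acat1 (-0.42) and Cpt1a (-0.040) without the top 5% of cells, and for Slc25a20 with trimmed-mean factors from all genes (-0.062), on the mean deposited log values (-0.027), on log2(CPM + 10) (-0.66) and with the replicate block (-0.35). In the smoothed table each of the 5 members kept its sign. Leaving out each mouse gave -0.24 to 0.75 for Bdh1, 0.031 to 0.74 for Acat1, 0.74 to 0.88 for Cpt1a, -1.32 to 0.047 for Cpt2 and -0.65 to 0.61 for Slc25a20. Whether the replicate numbers that the diets share pair the mice could not be told. The correlation of deviations was 0.03 for number 1 and 0.07 for number 2. With only 2 LFD mice, the deviations of one mirror those of the other, so these values cannot decide it. The replicate block gave 25 calls and no member.

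In the 4 mice without HFD mouse 1, Acat1 was at 0.63 with median-of-ratios factors, 0.61 with trimmed-mean factors from all genes (adjusted p = 0.215), 0.76 with no filter and 0.50 on the mean deposited log values, none of them called, and at 0.76 with library totals (limma voom adjusted p = 0.0487). Cpt2 was at -0.021, -0.014 and -0.15 with median-of-ratios factors, trimmed-mean factors from all genes and the mean deposited log values. A further mouse left out gave -0.15 to 0.85 for Bdh1, 0.53 to 0.83 for Acat1 (0.73 without LFD mouse 2), 0.59 to 0.93 for Cpt1a, -0.43 to 0.089 for Cpt2 (-0.0051 without LFD mouse 1) and 0.54 to 0.64 for Slc25a20. Where 1 mouse was left in a diet, it was assumed to vary like the others.

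The share differences of HFD minus LFD turned sign unthinned for Acat1 (-7.31 points) and Slc25a20 (-3.82 points). Leaving out each mouse gave -8.11 to 1.96 points for Bdh1, -6.09 to 18.5 for Acat1, -1.08 to 3.74 for Cpt1a, -10.1 to -2.43 for Cpt2 and -1.88 to 5.62 for Slc25a20. Along the axis, 129 genes were called with Cyp2e1 and Cyp2f2 as the score, 0 with all 5 mice (117 at unadjusted p under 0.05 by limma voom) and 94 to 208 with each mouse left out. Bdh1 ran from 0.72 to 1.42 with each mouse left out and was at 0.95 with the outer tertiles, 0.93 with no filter and 0.14 with all 5 mice, where Acat1 was at -0.34. The diet interaction of Cpt2 turned to -0.092 with the 2-gene score and to -0.15 with all 5 mice and ran from -0.47 to 0.48 with each mouse left out, and that of Slc25a20 turned to 0.15 with the 2-gene score. Depth limits the members in HFD mice 1 and 3, where each but Acat1 had at most 8 UMIs.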

Other observations

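Along the lobule axis, 3 of the 6 lists had genes called toward the pericentral side and 0 toward the periportal side. These were ketogenesis and ketone export (1 of 2 tested), mitochondrial beta oxidation and other PPAR alpha targets. The carnitine and regulator lists, with 3 and 6 genes tested, had 0 calls on either side. Malonyl-CoA control of CPT1 had 0 genes tested there. Over all 2029 genes tested, 1053 had a log2 fold change of pericentral over periportal above 0, with 107 pericentral and 91 periportal calls. Of 15 tested genes of mitochondrial beta oxidation, 12 were above 0 and 2 were called. They were Eci2, an enoyl-CoA isomerase (0.92, SE 0.22, limma voom adjusted p = 0.00129), and Acads, the short-chain acyl-CoA dehydrogenase (0.76, SE 0.26, adjusted p = 0.0396). Of the 8 tested PPAR alpha targets all had values above 0 and 4 were called. Among those called were Cyp4a10 (1.74, SE 0.30), Acaa1b (1.295, SE 0.12) and Cyp4a14 (1.09, SE 0.27). These genes were named after their values were seen.

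Fgf21, a hormone of the liver that PPAR alpha is known to induce, had 0, 22 and 1 UMIs in HFD mice 1, 2 and 3, against 0 UMIs in both LFD mice. Summed over mice this was 30.9 CPM in HFD mice, against a limit of 3.97 CPM that 3 counts over the LFD group allow, at least 7.80-fold higher. That bound rests on HFD mouse 2, since HFD mice 1 and 3 together had 1 UMI among 86373, below the limit that 3 counts set there. The UMIs of HFD mouse 2 lay in 19 of its 208 cells, with at most 3 in a cell. Fgf21 missed the filter on low counts and was not tested.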
